A study of Mus musculus with 24 samples.

Results

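The distal and the proximal end of the mandible were compared in mouse embryos that lack Alk5 in the neural crest, at embryonic day 14.5. The comparison rests on 6 of the 24 arrays of the study, namely all 3 whose titles give mutant, Alk5 and distal mandible and all 3 whose titles give mutant, Alk5 and proximal mandible. The whole study holds 8 groups of 3 single-colour arrays, from mutants and control littermates, mandible and maxilla, distal and proximal ends. Alk5 is the protein name of Tgfbr1, the type I receptor of TGF-beta. All embryos came from Wnt1cre;Alk5fl/+ mice crossed with Alk5fl/fl mice on a C57B6 background. The mutants of both ends were Wnt1cre;Alk5 mutant embryos, recognised by their cleft palate and calvarial defect. The control mandibles of both ends came from littermates without that phenotype, whose genotypes the labels do not itemise. By the cross, every embryo carried at least 1 floxed Alk5 allele. Wnt1-Cre acts in the neural crest, which forms the jaw's connective tissue, cartilage, bone and dental mesenchyme, whereas epithelium, endothelium, macrophages and muscle fibres come from other sources and keep the receptor. The labels name the compartments distal bone and proximal bone and do not say whether an array holds 1 embryo or a pool, so p-values measure the spread between these samples.

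Along the early mandibular arch, BMP4 and endothelin signals from the distal and ventral side switch on HAND2 and MSX factors, while FGF8 from the proximal epithelium switches on BARX1. DLX5 and DLX6 set lower jaw identity, and TGF-beta signalling in neural crest is needed for the growth of the mandible and its cartilage and bone. All values below are log2 signal levels after RMA normalization, and a difference is the distal minus the proximal mean, so that positive values are higher distally. Errors on differences are standard errors of the limma fit and errors on levels are standard deviations of 3 arrays. A gene was called at a Benjamini-Hochberg adjusted p under 0.05 over all 13942 genes tested, and array values are given in the order of the replicate numbers 1, 2 and 3.

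The arrays of the mutant mandible correlated with their own group at a mean r of 0.986 to 0.9918 across genes, and their median levels lay between 9.23 and 9.36. Arrays numbered 1 and 3 carried both Xist and Y-linked transcripts, whereas both arrays numbered 2 carried Xist with Eif2s3y at 4.29 distally and 3.88 proximally. Same-numbered distal and proximal arrays deviated together (r = 0.34, 0.55 and 0.27), so the replicate number was taken to pair the ends. The labels do not state a pairing, and the main fit does not use it. In the mutant maxilla, used below as a comparison, both arrays numbered 3 resembled mandible arrays more than their own group (r = 0.976 against 0.9725 distally and 0.9811 against 0.9688 proximally). Tgfbr1, the targeted gene, was at 12.36 ± 0.12 in mutant distal mandible, 12.42 ± 0.05 in mutant proximal mandible, 12.14 ± 0.11 in control distal mandible and 12.09 ± 0.11 in control proximal mandible (SD, n = 3 each). Its distal minus proximal difference in the mutant was -0.06 (adjusted p = 0.775). Where its probes lie relative to the deleted segment is not given in the sources used here, so these levels do not check the labels.

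In the mutant mandible 1258 genes were called between the ends, which is 9.02% of the genes tested. Of these, 698 were higher distally (5.01%) and 560 were higher proximally (4.02%). With the replicate number as a block the count was 2077, of which 1108 were higher distally and 969 proximally. Without the mutant distal array numbered 2 it was 567, without the mutant proximal array numbered 3 it was 627, and without both arrays numbered 2 it was 831. The 3 distal and 3 proximal arrays did not overlap for 23.1% of all genes tested.

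The transcription factors that mark the distal end of the arch stood apart strongly in the mutant. Alx1, a paired-type homeodomain factor of frontonasal and distal jaw mesenchyme, was at 11.85, 12.32 and 11.66 in mutant distal mandible, against 6.05, 7.85 and 6.92 in mutant proximal mandible. The 2 ends were far apart, with a difference of 5.01 ± 0.35, or 32.2-fold (adjusted p = 7e-08). In controls the levels were 11.85, 11.67 and 11.71 distally, against 7.06, 7.06 and 7.31 proximally (4.60, adjusted p = 2.3e-07). The genotypes had nearly the same distal level, and the other Alx1 probe set gave 4.96 in the mutant and 4.60 in the control.

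Hand2, a bHLH factor downstream of endothelin that specifies the ventral arch, read 13.04, 13.09 and 12.98 in mutant distal mandible, against 10.84, 11.87 and 10.70 in mutant proximal mandible. The ends did not overlap, the proximal array numbered 2 lay nearest to the distal ones, and the difference was 1.90 ± 0.36, or 3.72-fold (adjusted p = 0.00199). Control levels were 12.59, 12.35 and 12.43 distally, against 9.77, 9.73 and 9.55 proximally (2.77, adjusted p = 0.000109). Every mutant array lay above every control array of its own end, and the change in the difference was -0.88 (adjusted p = 1.0). The other Hand2 probe sets, with low mean levels of 5.43 and 5.86, gave 1.67 and 2.17 in the mutant. In the control they gave 1.54 and 1.81, so the smaller mutant difference was seen with the probe set used alone. In the mutant maxilla Hand2 was between 5.48 and 7.16, so the arrays carried this mandibular factor where their labels place it.

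Isl1, a LIM-homeodomain factor of the distal arch that neurons also use, was at 10.14, 10.44 and 10.71 in mutant distal mandible, against 8.76, 8.50 and 8.08 in mutant proximal mandible. The ends lay apart by 1.98 ± 0.40, or 3.95-fold (adjusted p = 0.00328). Controls held 10.41, 10.42 and 10.54 distally, against 7.10, 6.71 and 7.37 proximally (3.39, adjusted p = 4.23e-05). The distal ends of both genotypes overlapped, and all 3 mutant proximal arrays lay above the control proximal ones. The change in the difference was -1.41 and did not pass the test (adjusted p = 0.729), and the other Isl1 probe set gave 1.64 in the mutant and 2.52 in the control.

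Hey2, a bHLH repressor induced by Notch, was at 10.55, 10.93 and 10.47 in mutant distal mandible, against 8.33, 9.11 and 7.85 in mutant proximal mandible (2.22 ± 0.29, adjusted p = 7.5e-05). Controls had 8.13, 8.03 and 7.67 distally, against 6.87, 6.77 and 6.4 proximally (1.26, adjusted p = 0.0127). Both genotypes had the higher level distally, and all 6 mutant arrays lay above the control arrays of the same end. The control call ended without the control distal array numbered 1, the control distal array numbered 2 or the control proximal array numbered 3 (adjusted p = 0.0683, 0.0612 and 0.072), and the change in the difference was 0.96 (adjusted p = 0.851).

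**Figure D1:**
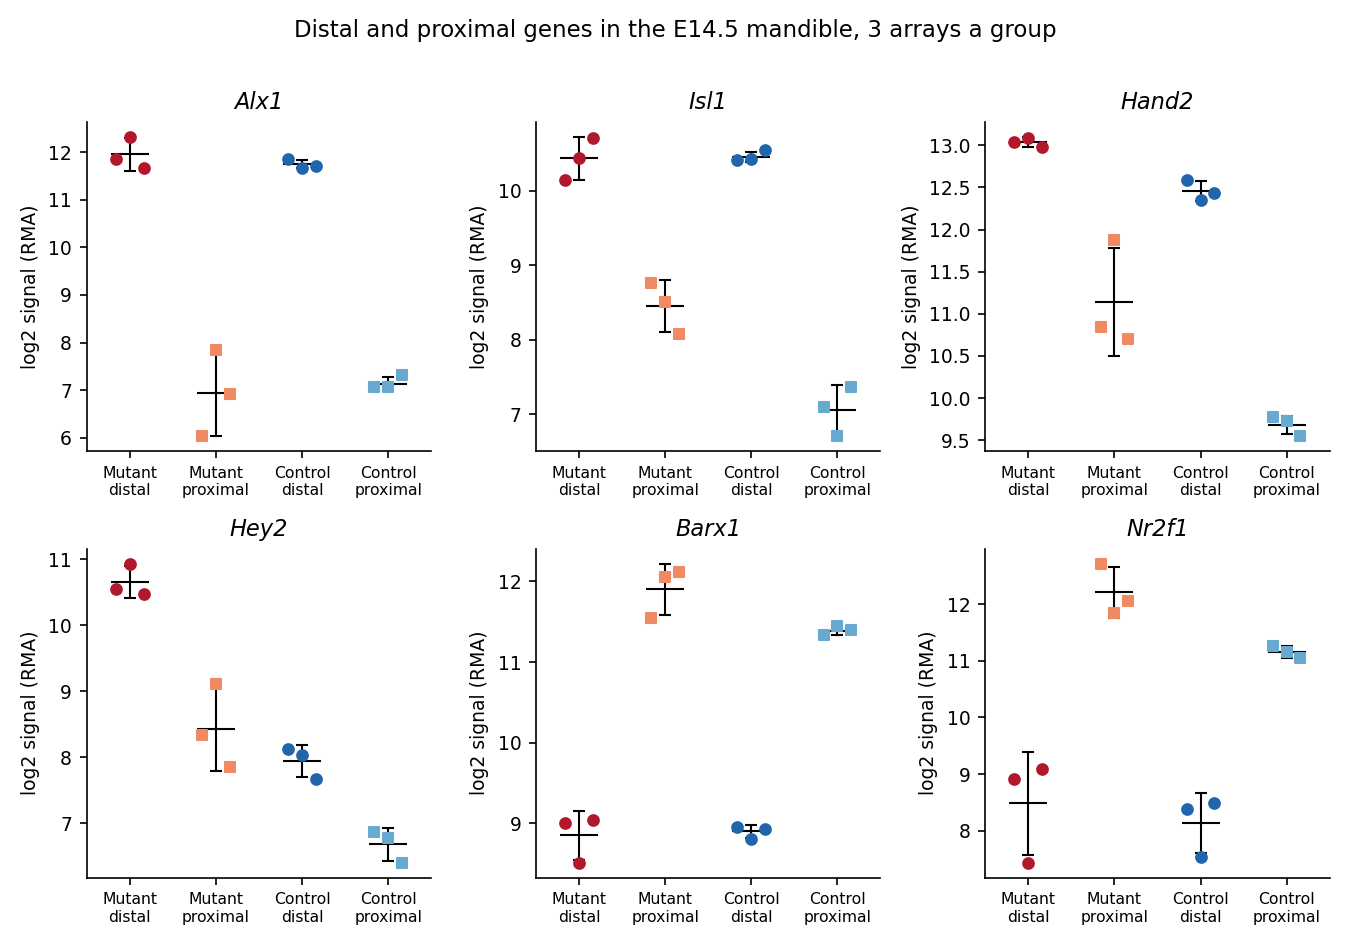
Log2 signal level (y axis) of Alx1, Isl1, Hand2, Hey2, Barx1 and Nr2f1 in each array of the mutant distal, mutant proximal, control distal and control proximal mandible; points are arrays and bars the mean ± SD of 3. The first 4 genes are higher distally and Barx1 and Nr2f1 higher proximally in both genotypes, with Alx1 between 11.66 and 12.32 in mutant distal arrays and between 6.05 and 7.85 in mutant proximal ones.

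The stretches of 250 bases before the RefSeq start of 4 of these factors are shown because their genes mark opposite ends of the same mutant tissue. The sequences are RefSeq's, build GRCm38.p6, read 5′ to 3′ along the gene's strand, at chr8:57320733-57320982 (plus strand) for Hand2, chr13:53472781-53473030 (minus) for Msx2, chr13:116309689-116309938 (minus) for Isl1 and chr13:48662786-48663035 (plus) for Barx1. Capitals mark TAATTA, a core that homeodomain factors bind, and CANNTG, the E-box that bHLH factors bind. Both motifs read the same on both strands.
Hand2: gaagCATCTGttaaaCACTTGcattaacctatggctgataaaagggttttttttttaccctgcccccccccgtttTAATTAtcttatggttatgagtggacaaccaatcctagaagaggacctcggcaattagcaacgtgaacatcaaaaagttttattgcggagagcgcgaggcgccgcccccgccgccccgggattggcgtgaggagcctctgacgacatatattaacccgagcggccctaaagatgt
Msx2: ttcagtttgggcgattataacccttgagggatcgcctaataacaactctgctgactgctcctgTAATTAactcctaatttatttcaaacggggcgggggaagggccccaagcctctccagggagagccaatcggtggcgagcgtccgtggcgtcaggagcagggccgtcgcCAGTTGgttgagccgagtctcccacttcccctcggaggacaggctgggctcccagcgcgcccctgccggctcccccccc
Isl1: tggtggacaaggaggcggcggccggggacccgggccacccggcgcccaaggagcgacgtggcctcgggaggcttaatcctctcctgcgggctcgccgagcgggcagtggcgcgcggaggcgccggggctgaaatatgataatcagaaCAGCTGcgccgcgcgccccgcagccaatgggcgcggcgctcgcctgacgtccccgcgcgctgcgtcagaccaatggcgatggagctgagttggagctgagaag
Barx1: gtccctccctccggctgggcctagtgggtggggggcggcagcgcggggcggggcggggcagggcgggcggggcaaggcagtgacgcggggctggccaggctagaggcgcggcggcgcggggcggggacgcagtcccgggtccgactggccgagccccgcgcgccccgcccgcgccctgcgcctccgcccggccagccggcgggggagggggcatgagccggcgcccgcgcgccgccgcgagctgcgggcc
The Hand2 stretch held 1 TAATTA and 2 CANNTG matches, that of Msx2 held 1 of each, that of Isl1 held 0 and 1, and that of Barx1 held 0 of either. Of 32851 promoters of this length, 4.84% held TAATTA and 66.2% held CANNTG. The sequence of the Hey2 promoter held 1 CANNTG and 0 TAATTA.

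Of the 8 distal arch factors tested, 6 were higher distally in the mutant and 0 lower, beside 5.01% of all genes, with a median difference of 1.5 against 0.00 over all genes. The count was 6 whichever single array of the mutant mandible was left out, and also without both arrays numbered 2. The control had 5 higher and a median of 1.13. Beside Alx1, Hand2 and Isl1 these were Msx2, Bmp4 and Alx4, and Hand1 (0.28, adjusted p = 0.154) and Msx1 (0.78, adjusted p = 0.203) were not called. Msx2, a homeodomain target of BMP, was at 10.17, 10.80 and 10.30 in mutant distal mandible, against 8.15, 9.04 and 8.87 in mutant proximal mandible (1.74 ± 0.23, adjusted p = 8.22e-05, 1.66 in controls). Bmp4, the ligand upstream of it, was at 11.84, 12.17 and 11.71 distally, against 10.37, 10.90 and 10.67 proximally (1.26 ± 0.16, adjusted p = 4.89e-05). Neither gene overlapped between the ends. The control difference of Bmp4 was 0.61 (adjusted p = 0.0259) and its call ended in 5 of 6 fits without 1 control array, all but the one without the control distal array numbered 3 (adjusted p up to 0.134). Alx4, a paralog of Alx1, was at 7.49, 7.26 and 7.05 distally, against 6.41, 6.59 and 6.61 proximally (0.73 ± 0.10, adjusted p = 0.000171), with 0.24 in controls (adjusted p = 0.245).

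At the proximal end Barx1, Nr2f1 and Nr2f2 carried the difference. Barx1, the homeodomain factor of proximal arch and molar mesenchyme, was at 9.0, 8.51 and 9.04 in mutant distal mandible, against 11.54, 12.06 and 12.12 in mutant proximal mandible. The ends lay apart by -3.05 ± 0.36 (adjusted p = 3.48e-05). Control levels were 8.96, 8.81 and 8.93 distally, against 11.33, 11.45 and 11.40 proximally (-2.49, adjusted p = 0.000279). Nr2f1, a COUP-TF nuclear receptor of upper and proximal jaw mesenchyme, was at 8.92, 7.43 and 9.08 in mutant distal mandible, against 12.72, 11.85 and 12.06 in mutant proximal mandible (-3.74 ± 0.34, adjusted p = 1.92e-06, -3.02 in controls). Its paralog Nr2f2 was at 10.46, 9.86 and 10.72 distally, against 12.62, 11.95 and 12.48 proximally (-2.0 ± 0.20, adjusted p = 5.82e-06, -0.95 in controls). In all 3 genes every proximal array lay above every distal one.

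The other proximal factors tested were not called in the mutant. Of 11 tested, 3 were higher proximally and 0 distally, beside 4.02% of all genes, with a median of -0.47 in the mutant and 0.00 in the control, which also had 3. The mutant median was -0.14 without the mutant proximal array numbered 1. Gsc (-0.59, adjusted p = 0.552), a homeodomain factor of the jaw joint and ear region, and Emx2 (0.40, adjusted p = 0.563) were among those not called. So were Pou3f3 (-0.21), Eya1 (0.09), Meis1 (-0.47), Meis2 (-0.33) and Tbx1 (0.10). Foxc1, a forkhead factor of jaw mesenchyme, differed by -1.07 (adjusted p = 0.0761) and passed with the replicate block (adjusted p = 0.0377), which brought the count to 4. Without the mutant proximal array numbered 2 the count was 5. Nkx3-2, a marker of the joint, lay below the filter on low levels.

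All 6 DLX factors, the homeodomain code of the arches, had negative differences in the mutant, as did 7046 of the 13942 genes tested, and 3 passed the test, beside 4.02% of all genes. Dlx5 was at 10.82, 10.63 and 10.59 in mutant distal mandible, against 11.62, 11.59 and 11.84 in mutant proximal mandible (-1.0 ± 0.17, adjusted p = 0.000998, -0.42 with adjusted p = 0.206 in controls). Dlx6 was at 9.85, 9.32 and 8.99 distally, against 10.96, 10.71 and 10.95 proximally (-1.49 ± 0.25, adjusted p = 0.000632). For both genes each proximal array was higher than each distal one. The control difference of Dlx6 was -0.89 (adjusted p = 0.0391), a call that ended without any 1 of the 6 control arrays (adjusted p = 0.0814 to 0.146). Dlx1 was at 8.47, 8.56 and 8.79 distally, against 10.05, 10.07 and 10.01 proximally (-1.44 ± 0.40, adjusted p = 0.0266). Its ends did not overlap, but the call ended without the mutant distal array numbered 1 or 2 or the mutant proximal array numbered 1 or 3 (adjusted p = 0.0775, 0.0938, 0.0669 and 0.0816). Dlx2 (-0.09), Dlx3 (-0.28) and Dlx4 (-0.69) did not pass. The median of the 6 was -0.85 in the mutant and -0.49 in the control, where Dlx6 was the only one called (2 with the replicate block, Dlx3 being the other).

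Krt13, Krt6a, Odam and Shh had large distal differences in both genotypes, though that of Shh was not called in the control. Krt13, a keratin of oral lining epithelium, was at 9.91, 10.13 and 11.03 in mutant distal mandible, against 6.19, 6.01 and 7.92 in mutant proximal mandible (3.65 ± 0.74, adjusted p = 0.00356, 2.75 in controls). Krt6a differed by 2.46 ± 0.51 (2.15 in controls) and Odam, a secreted protein of tooth epithelium, by 2.54 ± 0.34 (2.42 in controls). The mutant proximal levels of Krt13 in arrays numbered 1 and 2 lay below the filter on low levels (6.33 to 6.47 across arrays). Its mutant difference is thus limited by background. Odam averaged 6.06 over all arrays, also below the filter, so its differences may be limited by background and their likeness was not measured. Shh, the ligand of the tooth placode, was at 10.47, 10.04 and 11.54 distally, against 7.78, 8.59 and 8.83 proximally (2.28 ± 0.68, adjusted p = 0.041, 1.88 with adjusted p = 0.132 in controls). Its ends did not overlap, yet its call ended without any 1 of the 6 arrays (adjusted p = 0.0544 to 0.165). Of 12 genes of tooth epithelium tested, 5 were higher distally in the mutant and 0 proximally (median 0.57), beside 5.01% of all genes, against 3 and 0 in the control (median 0.19). The mutant count was 0 without the mutant distal array numbered 2, 1 without the mutant distal array numbered 3 or the mutant proximal array numbered 1 or 3, 3 without the mutant distal array numbered 1, and 2 without both arrays numbered 2.

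Other large distal differences were not keratins. Qrfpr, a peptide receptor, was at 7.29, 7.38 and 7.56 in mutant distal mandible, against 4.10, 4.23 and 4.38 in mutant proximal mandible, with 7.17, 7.04 and 7.27 distally against 4.31, 4.23 and 3.92 proximally in controls. Its difference of 3.17 ± 0.12 had an adjusted p of 1.67e-12, and the control difference was 3.01. Sfrp4, a secreted Wnt antagonist, was at 11.46, 11.92 and 11.40 distally, against 7.28, 8.57 and 9.18 proximally in the mutant (3.25 ± 0.46, adjusted p = 0.00015, 3.17 in controls). Pax3, a paired-box factor of neural crest and muscle precursors, was at 11.25, 11.14 and 10.85 distally, against 8.52, 9.73 and 8.70 proximally in the mutant (2.10 ± 0.30, adjusted p = 0.000171, 2.13 in controls). These 3 genes separated the ends fully in the mutant, and Sfrp4 and Pax3 had nearly equal differences in the control. Arrays that do not overlap were part of the rule that named the largest mutant differences, so such separation is no separate support. The proximal levels of Qrfpr lay near the lowest values on the arrays in both genotypes, so its differences are limited by background and their likeness was not measured. Of the arrays listed here, only the distal mandible ones lay above the filter on low levels (6.33 to 6.47 across arrays). Qrfpr thus entered the test through the arrays where it is high, and its small p-values are no separate support. Dynap was at 8.24, 8.84 and 8.51 distally, against 5.11, 5.56 and 5.24 proximally (3.23 ± 0.46, adjusted p = 0.000176), with 1.08 in controls (adjusted p = 0.234, change in the difference 2.15 with adjusted p = 0.371). The mutant proximal levels of Dynap also lay below the filter on low levels, so its mutant difference is limited by background.

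Hoxd1 and Nr2f1 had similar proximal excesses in the mutant, but the distal levels of Hoxd1 lay below the filter on low levels (6.33 to 6.47 across arrays), so its difference is limited by background. This Hox gene, which first arch crest normally lacks, was at 6.21, 4.0 and 5.24 in mutant distal mandible, against 9.71, 8.49 and 8.53 in mutant proximal mandible (-3.76 ± 0.67, adjusted p = 0.00119). In controls it was at 4.69, 4.30 and 4.86 distally, against 5.00, 4.72 and 4.80 proximally (-0.22, adjusted p = 0.95). Of the mandible arrays, only the mutant proximal ones lay above 8 on the log2 scale. Over all arrays of the study, maxilla included, Hoxd1 averaged 6.47, which is above every mutant distal and control mandible level. Its maxilla levels are not given here, so high Hoxd1 is not shown to be particular to the mutant proximal mandible. The change in the difference between the genotypes was -3.54, with adjusted p = 0.23 and 0.0596 with the replicate block. The other 3 Hox genes tested were not called.

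Among the remaining proximal genes, Vstm2a was at 4.42, 4.58 and 5.09 in mutant distal mandible, against 8.04, 7.19 and 7.89 in mutant proximal mandible (-3.01 ± 0.35, adjusted p = 2.57e-05, -1.75 in controls). Its mutant distal levels lay below the filter on low levels, so its mutant difference is limited by background. Meox2, a homeodomain factor of muscle and connective tissue precursors, was at 8.14, 7.76 and 7.48 distally, against 10.83, 9.97 and 10.62 proximally (-2.68 ± 0.44, adjusted p = 0.000578, -1.41 in controls, adjusted p = 0.0702, or 0.0215 with the replicate block). Gdf5, a BMP-family ligand of joint-forming cells, was at 6.23, 6.72 and 6.69 distally, against 8.25, 7.59 and 8.94 proximally (-1.71 ± 0.27, adjusted p = 0.000379, -0.05 in controls). Each of the 3 had higher levels in all proximal arrays than in any distal one. The rule that named the largest mutant differences required this, so it is no separate support. Pitx1 (-1.03, adjusted p = 0.00193), a homeodomain factor of mandible and hindlimb, and Osr2 (-1.15, adjusted p = 0.00518), a zinc-finger factor of palate and tooth mesenchyme, were also higher proximally. The call of Pitx1 ended without both arrays numbered 2 (-0.77, adjusted p = 0.0518). Nefl, a neurofilament subunit, differed by -2.81 (adjusted p = 0.00626). Of the 13 neuronal genes tested, Nefl and Nefm were higher proximally and Isl1 and Stmn2 distally, beside 4.02% and 5.01% of all genes. The list had a median of -0.08 in the mutant and 0.12 in the control, where 0 were higher proximally and 1 distally, beside 2.54% and 2.91%. The calls of Nefm (-2.84) and Stmn2 (1.42) both ended without the mutant distal array numbered 2 or the mutant proximal array numbered 1 or 3, and that of Stmn2 also without the mutant distal array numbered 1 (adjusted p up to 0.159).

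Most genes that divided the control mandible had the same direction in the mutant. The control comparison called 760 genes (5.45%), 406 of them higher distally (2.91%) and 354 higher proximally (2.54%), and it shares no array with the mutant comparison. It called 1334 with the replicate block, 528 without the control distal array numbered 3, and 362 to 465 without any other 1 of its arrays. With only the arrays compared, the control called 1870 genes and the mutant 875. With array weights the counts were 2547 in the control and 983 in the mutant. Which genotype had more calls therefore depended on the setting, and a call in 1 genotype alone does not show a difference between them. Of the 406 distal genes, 397 (97.8%) had a positive difference in the mutant and 282 (69.5%) were called there, which is 40.4% of the 698 distal genes of the mutant. Of the 354 proximal genes, 327 (92.4%) had a negative difference in the mutant and 121 (34.2%) were called, which is 21.6% of the 560. In each direction 1 control gene was called the opposite way. The median difference of the distal genes was 0.65 in the mutant and 0.81 in the control, and that of the proximal genes was -0.31 in the mutant and -0.59 in the control. These genes were picked by their control call, and genes picked by their mutant call had the reverse order. Their medians were 0.62 in the mutant and 0.36 in the control distally, and -0.69 and -0.33 proximally. Neither order therefore measures a weaker or stronger pattern in the mutant. Without both mutant arrays numbered 2, 217 (53.4%) of the 406 distal and 81 (22.9%) of the 354 proximal control genes were called in the mutant. Leaving out the mutant proximal array numbered 3 gave 194 and 65, and leaving out the mutant distal array numbered 2 gave 193 and 65. Across all 13942 genes the differences of both genotypes had r = 0.70, as a description, since genes are not independent replicates. The control arrays of the ends did not overlap for 31.9% of all genes.

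**Figure D2:**
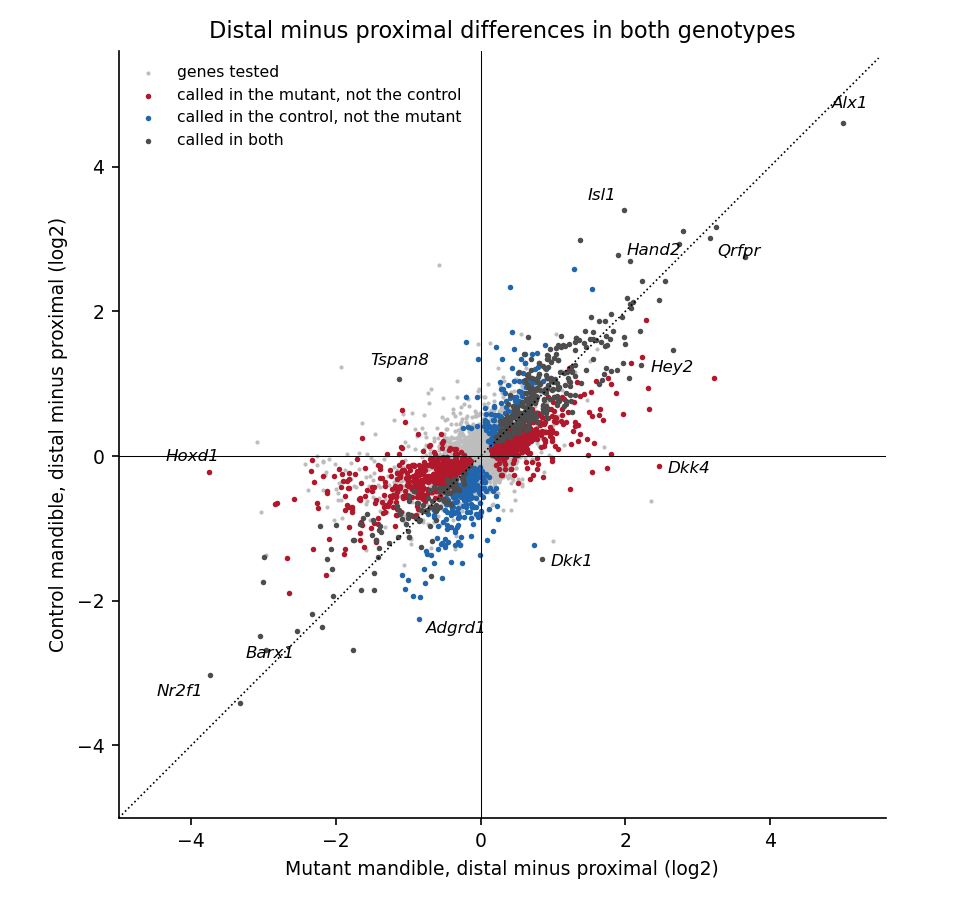
Distal minus proximal log2 difference of each gene tested in the mutant mandible (x axis) and in the control mandible (y axis), with genes called in 1 genotype, in both or in neither in separate colours and equality as a dotted line. Alx1 lies at 5.01 in the mutant and 4.60 in the control, Barx1 at -3.05 and -2.49, and Hoxd1 at -3.76 and -0.22.

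Some of the strongest control differences were not called in the mutant. Adgrd1, an adhesion G-protein-coupled receptor, was at 5.82, 5.70 and 5.89 in mutant distal mandible, against 6.24, 6.01 and 7.72 in mutant proximal mandible (-0.85, adjusted p = 0.147). In controls it was at 6.94, 7.26 and 7.31 distally, against 9.46, 9.47 and 9.33 proximally (-2.25, adjusted p = 0.000507). Its levels were lower in the mutant at both ends, and the change in the difference was 1.40 (adjusted p = 0.565). All its mutant levels but that of the proximal array numbered 3 lay below the filter on low levels (6.33 to 6.47 across arrays). The mutant difference is thus limited by background and does not show that the control difference was lost. The mutant difference passed without the mutant proximal array numbered 2 (-1.18, adjusted p = 0.0413). Lipi, a phospholipase, differed by -0.84 in the mutant (adjusted p = 0.0562, 0.0242 with the replicate block) and by -1.95 in the control (adjusted p = 0.000177). Nts, the neurotensin precursor (2.06 in the mutant, 2.69 in the control), and Vit, a matrix protein (-2.33 and -2.18), were called in both.

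The test of the difference between the genotypes called 15 genes (0.108%), 9 with a more positive distal minus proximal difference in the mutant and 6 with a more negative one. With the replicate block it called 56, including these 15, and without both mutant arrays numbered 2 it called 7. It called 1 or 2 without the control distal array numbered 1 or 2, the control proximal array numbered 2 or the mutant distal array numbered 2. It called 7 without the mutant proximal array numbered 1, 8 without the control proximal array numbered 1, and 29 without the mutant proximal array numbered 3. Dkk1, a secreted Wnt antagonist, was at 10.69, 10.68 and 10.43 in mutant distal mandible, against 9.36, 9.75 and 10.16 in mutant proximal mandible. In controls it was at 9.87, 9.93 and 9.47 distally, against 11.36, 11.28 and 10.91 proximally. Its direction was opposite in the genotypes, 0.84 in the mutant (adjusted p = 0.0182) and -1.43 in the control (adjusted p = 0.000414). The change of 2.27 ± 0.31 (adjusted p = 0.00681) was called in all 12 fits that left out 1 mandible array (adjusted p = 0.00241 to 0.0383), and the other Dkk1 probe set gave 1.08 in the mutant and -1.64 in the control. The call within the mutant ended without the mutant distal array numbered 1 or 2 or the mutant proximal array numbered 1 (adjusted p = 0.0616, 0.0804 and 0.0974), and without both arrays numbered 2 (0.108).

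Dkk4, a related antagonist made by placode epithelium, was at 8.34, 9.48 and 8.16 in mutant distal mandible, against 6.44, 6.10 and 6.05 in mutant proximal mandible. In controls it was at 6.71, 5.86 and 6.14 distally, against 6.34, 6.43 and 6.33 proximally. Only the mutant distal arrays stood out, with 2.46 in the mutant, -0.13 in the control and a change of 2.59 ± 0.43 (adjusted p = 0.0176). All other mandible levels of Dkk4 but that of the control distal array numbered 1 lay within or below the filter on low levels (6.33 to 6.47 across arrays). Its differences and their change are thus limited by background. Tfap2b, an AP-2 factor of neural crest, was at 9.99, 10.10 and 9.78 in mutant distal mandible, against 9.09, 9.67 and 8.89 in mutant proximal mandible (0.74, adjusted p = 0.0921, 0.00854 with the block). In controls it was at 7.85, 7.35 and 7.47 distally, against 8.99, 8.71 and 8.68 proximally (-1.24, adjusted p = 0.00768). The change of 1.97 ± 0.37 had an adjusted p of 0.0388, and the distal ends of the genotypes lay further apart than the proximal ends.

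Sox18, a factor of blood and lymph vessels, differed by 0.98 in the mutant and -0.07 in the control, with 10.92, 10.99 and 10.94 in mutant distal mandible against 9.81, 10.02 and 10.06 in mutant proximal mandible. It was 1 of 14 endothelial genes tested and the only one called in the mutant, beside 9.02% of all genes in either direction. The list had a median of -0.03 in the mutant. Tspan8, a tetraspanin, was at 6.74, 6.61 and 6.65 in mutant distal mandible, against 7.5, 7.97 and 7.92 in mutant proximal mandible (-1.13, adjusted p = 0.00656). In controls it was at 9.15, 9.66 and 8.57 distally, against 8.41, 7.86 and 7.92 proximally (1.06, adjusted p = 0.0138). The other Tspan8 probe sets, with mean levels of 4.56 to 7.08, gave only -0.28 to -0.01 in the mutant and 0.18 to 0.58 in the control. The clear opposite order was thus seen with the probe set used alone. The control call of Tspan8 ended without the control distal array numbered 1 or 2 or the control proximal array numbered 2 or 3 (adjusted p = 0.0562, 0.107, 0.0742 and 0.0647). Corin, a serine protease, was at 7.66, 6.95 and 7.79 in mutant distal mandible, against 9.66, 9.70 and 9.56 in mutant proximal mandible, with -2.17 in the mutant and -0.28 in the control. Of the 15 genes Dkk1 alone was called in every one of the 12 fits without 1 array, and the other 14 were lost in 3 to 10 of them.

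**Figure D3:**
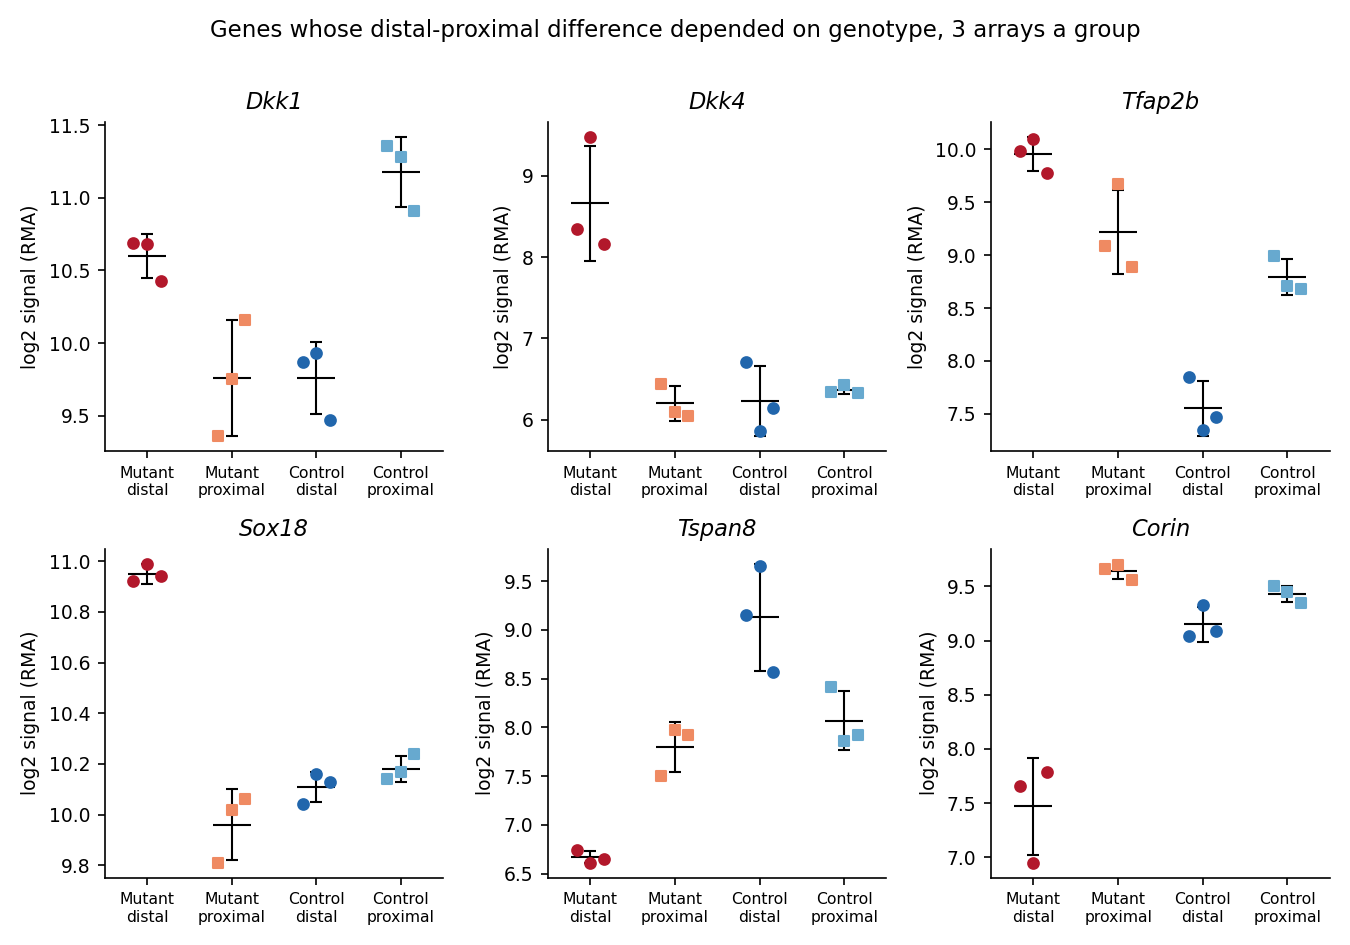
Log2 signal level (y axis) of Dkk1, Dkk4, Tfap2b, Sox18, Tspan8 and Corin in each array of the 4 mandible groups, points for arrays and bars for the mean ± SD of 3. Dkk1 is higher distally in the mutant and lower distally in the control, and Tspan8 shows the opposite order in each with the probe set used.

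More Wnt ligands and response genes were higher distally than proximally in the mutant. Of 13 Wnt ligands tested, 6 were higher distally and 0 proximally (median 0.49), beside 5.01% and 4.02% of all genes in the mutant, against 5 and 0 in the control (median 0.43), beside 2.91% and 2.54%. The same shares apply to the other pathway lists. The mutant count was 3 without the mutant distal array numbered 2, the mutant proximal array numbered 1 or the mutant proximal array numbered 3. Wnt5a, a ligand of outgrowth and non-canonical signalling, was at 12.64, 12.79 and 12.61 in mutant distal mandible, against 11.48, 11.51 and 10.98 in mutant proximal mandible (1.36 ± 0.20, adjusted p = 0.000266, 1.61 in controls). Wnt4 (0.91) and Wnt7b (0.68) were also called. Of 11 canonical response genes, 6 were higher distally and 1 proximally (median 0.63), against 5 and 0 in the control (median 0.30), and the distal count was 6 in every fit without 1 array. Lef1, the nuclear partner of beta-catenin, was at 11.34, 11.45 and 11.07 distally, against 10.49, 10.46 and 10.21 proximally (0.90 ± 0.12, adjusted p = 6.19e-05). The feedback inhibitors Nkd1 (0.86) and Nkd2 (0.73) were higher distally and the cyclin gene Ccnd1 (-0.66) proximally. The 12 secreted antagonists were split, with 5 higher distally and 2 proximally. The distal count was 3 without the mutant distal array numbered 1 or 2, and 2 without the mutant proximal array numbered 1 or without both arrays numbered 2. Sfrp1 was at 9.41, 8.98 and 9.68 distally, against 11.08, 10.89 and 11.54 proximally (-1.81 ± 0.23, adjusted p = 5.5e-05, -0.32 with adjusted p = 0.569 in controls). Sfrp2 differed by -1.11, while Dkk1, Dkk4 and Sfrp4 were higher distally.

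The BMP list had 5 members higher distally and 2 proximally of 21 tested (median 0.21), beside 5.01% and 4.02% of all genes, against 3 and 0 in the control (median 0.10). The median was 0.12 without the mutant proximal array numbered 2, and without the mutant distal array numbered 2 or without both arrays numbered 2 the distal count was 3. Bambi, a decoy receptor and BMP target, was at 11.25, 11.53 and 11.44 in mutant distal mandible, against 10.06, 10.77 and 10.42 in mutant proximal mandible (0.99 ± 0.16, adjusted p = 0.000447, 0.25 in controls). Id4, a target of BMP, differed by 1.01 (0.81 in controls), and the receptor Bmpr1b was higher proximally (-1.83, adjusted p = 0.00199, -0.70 in controls). In the Notch list 4 of 16 were higher distally and 2 proximally, or 2 and 1 without the mutant distal array numbered 2 or the mutant proximal array numbered 3, again beside 5.01% and 4.02% of all genes. The proximal count was also 1 without the mutant proximal array numbered 1 or without both arrays numbered 2. The ligand Jag1 differed by 0.65 (adjusted p = 0.00099) beside the target Hey2, while Heyl, another target, was higher proximally (-0.72, adjusted p = 0.00405). Of 13 genes of the retinoic acid pathway, 1 was higher distally and 4 proximally (median -0.27, or -0.17 without the mutant distal array numbered 2), and the proximal count was 1 without the mutant distal array numbered 1 or the mutant proximal array numbered 3 and 2 without the mutant distal array numbered 2, either of the mutant proximal arrays numbered 1 and 2, or both arrays numbered 2. The distal call was Cyp26b1, a retinoic acid-degrading enzyme (0.95, adjusted p = 0.0102), which was lost without the mutant distal array numbered 2 or the mutant proximal array numbered 3 (adjusted p = 0.0787 and 0.0538). Aldh1a2, the enzyme that makes retinoic acid, was at 8.86, 8.62 and 8.46 distally, against 10.62, 10.76 and 10.95 proximally (-2.13 ± 0.16, adjusted p = 1.16e-07, -1.43 in controls). Its ends were well apart in both genotypes. Of 13 TGF-beta ligands, latency proteins, receptors and SMADs, Ltbp1, a latency protein, was higher distally (0.55, adjusted p = 0.000873) and Tgfb3, a ligand, proximally (-0.66, adjusted p = 0.00862). The call of Tgfb3 ended without the mutant proximal array numbered 3 (adjusted p = 0.0656). Of 17 genes that TGF-beta induces in mesenchymal cells, 3 were higher distally and 1 proximally (median 0.00). The distal count was 0 without the mutant distal array numbered 2 or both arrays numbered 2, 2 without the mutant distal array numbered 3, and 1 without any other 1 of the arrays, and the proximal count was 0 without the mutant distal array numbered 3.

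**Figure D4:**
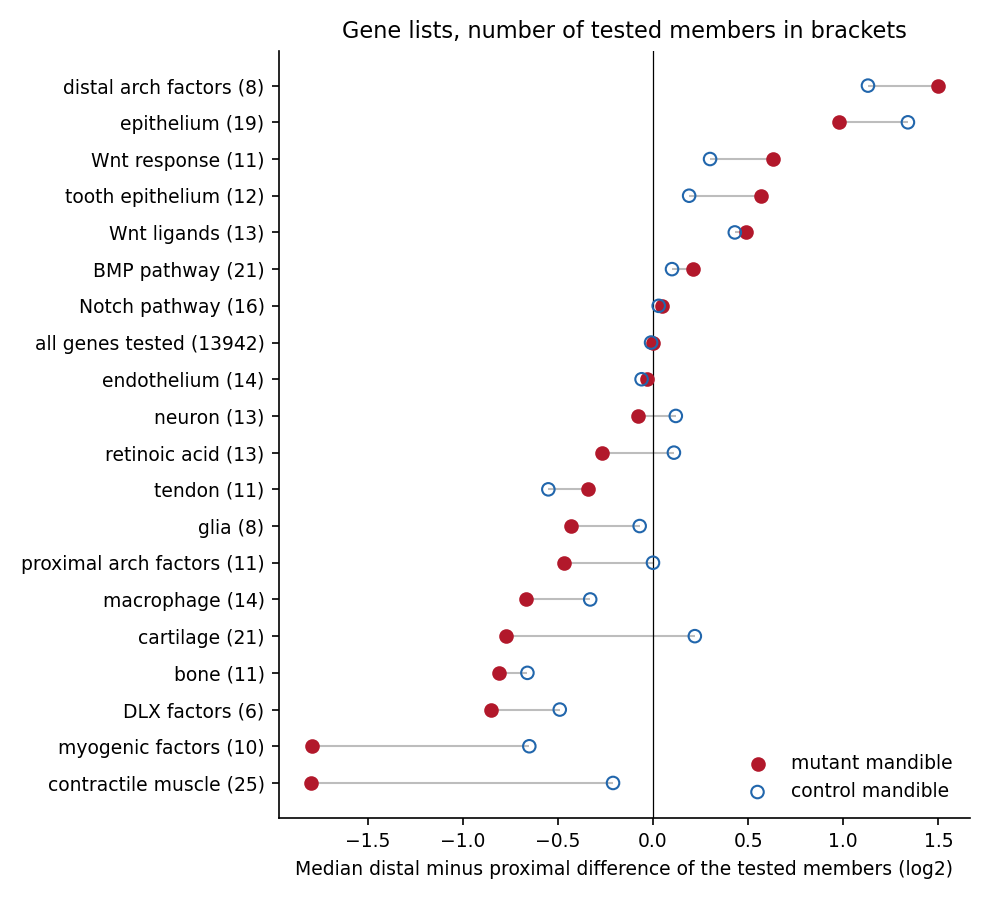
Median distal minus proximal log2 difference (x axis) of the tested members of each gene list (y axis, all genes tested among them), filled for the mutant and open for the control mandible. Distal arch factors lie at 1.5 in the mutant and 1.13 in the control, and muscle genes at -1.80 and -0.21.

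Markers of other cell types differed between the ends of the mutant too, and their part in the differences above was not tested. In bulk tissue, fewer cells of a type and less RNA per cell cannot be told apart. All 25 sarcomere genes tested had a lower mean distally in the mutant and 24 of 25 did in the control, with a median of -1.80 in the mutant and -0.21 in the control. Of these 3 passed in the mutant, beside 4.02% of all genes, and 23 did with the replicate block, while 0 passed in the control. The separate arrays of the mutant maxilla also had all 25 lower distally, with a median of -2.16 and 4 called (19 with the replicate block). The mean level of the 25 genes was 8.74, 7.29 and 8.88 in mutant distal mandible, against 10.25, 9.37 and 10.61 in mutant proximal mandible, and 10.12, 10.79 and 11.06 in control distal mandible, against 10.46, 10.70 and 11.53 in control proximal mandible. Both mutant arrays numbered 2 were the lowest of their end. The 3 called genes, the myosin light chain Myl4 (-2.34, adjusted p = 0.0336), Mybph (-2.57, adjusted p = 0.0314) and Actn2 (-2.30, adjusted p = 0.0249), each lost their call without the mutant distal array numbered 2 or the mutant proximal array numbered 1 or 3 (adjusted p up to 0.213). Without both arrays numbered 2 the count was 0, and without the mutant proximal array numbered 2 alone it was 14. Pax7, a factor of muscle stem cells, was higher proximally (-1.81, adjusted p = 0.0033).

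Cartilage genes had a median of -0.77 in the mutant and 0.22 in the control, with 2 of 21 called in each genotype, all higher proximally, beside 4.02% of all genes in the mutant and 2.54% in the control. The mutant median was -0.35 without the mutant proximal array numbered 3 and -1.29 without both arrays numbered 2. The mutant calls were C1qtnf3 (-1.82, adjusted p = 0.018), a collagen-domain secreted protein, and Ihh (-0.56, adjusted p = 0.0157), the hedgehog ligand of growth cartilage. Ihh differed by -0.70 in the control (adjusted p = 0.00461) and was called there in all 6 fits without 1 array. Both mutant calls ended without the mutant distal array numbered 2 or the mutant proximal array numbered 3, and that of C1qtnf3 also without the mutant distal array numbered 1 (adjusted p up to 0.114). Without the mutant proximal array numbered 2 the count was 4. Their mean level was 8.98, 8.95 and 8.35 in mutant distal mandible, against 9.34, 9.18 and 10.43 in mutant proximal mandible, and 10.70 to 10.98 in the control arrays. Bone genes had a median of -0.81 in the mutant and -0.66 in the control, with 4 of 11 higher proximally in the mutant, beside 4.02% of all genes, and 2 in the control, where 5 passed with the replicate block. The mutant median was -0.41 without the mutant proximal array numbered 3 and -0.55 without the mutant distal array numbered 2. Ibsp, a bone matrix protein, was at 11.28, 8.87 and 10.87 in mutant distal mandible, against 12.18, 11.95 and 13.28 in mutant proximal mandible (-2.13, adjusted p = 0.0466), and its proximal arrays all lay above the distal ones. The calls of Ibsp, Phex (-2.65) and Ifitm5 (-2.13) all ended without the mutant distal array numbered 2 or the mutant proximal array numbered 3 (adjusted p = 0.119 to 0.288), which left Dlx5 alone. Those of Ibsp and Phex also ended without the mutant distal array numbered 3 or the mutant proximal array numbered 1, and that of Phex without the mutant distal array numbered 1. The joint and ear list had Gdf5 and Barx1 higher proximally and Trps1, a GATA-type repressor that acts in cartilage and joints, higher distally (1.56 ± 0.23, adjusted p = 0.000181, 0.18 in controls). The change in the difference of Trps1 was 1.38 (adjusted p = 0.118, 0.0399 with the replicate block).

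Epithelial genes were higher distally in both genotypes. In the mutant 11 of 19 were called (median 0.98), all higher distally, beside 5.01% of all genes, against 14 of 19 in the control (median 1.34), beside 2.91%. The mutant count was 4 or 5 without any 1 of 5 of the 6 arrays, 10 without the mutant proximal array numbered 2, and 4 without both arrays numbered 2. The log2 of the summed signal of the 19 genes ranged from 15.80 to 16.23 in mutant distal mandible, against 14.98 to 15.30 in mutant proximal mandible. Cdh1, the epithelial cadherin, was at 11.45, 11.94 and 11.96 distally, against 10.79, 10.76 and 10.39 proximally (1.13 ± 0.19, adjusted p = 0.000632, 1.53 in controls). Its ends did not overlap. Macrophage genes had 6 of 14 called, all higher proximally (median -0.67), beside 4.02% of all genes, against 0 in the control (median -0.33), where 3 passed with the block. Lower distal means were found for 13 of the 14 in the mutant mandible, 14 in the control mandible and 14 in the mutant maxilla (median -0.52). The mutant mandible median was -0.43 without the mutant distal array numbered 2. The mutant count was 12 with the replicate block, 3 without both arrays numbered 2, 1 without the mutant distal array numbered 1, 3 without the mutant proximal array numbered 1, and 0 without the mutant distal array numbered 2 or the mutant proximal array numbered 3. Their mean level was 8.08, 7.65 and 8.44 in mutant distal mandible, against 8.63, 8.39 and 8.97 in mutant proximal mandible.

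**Figure D5:**
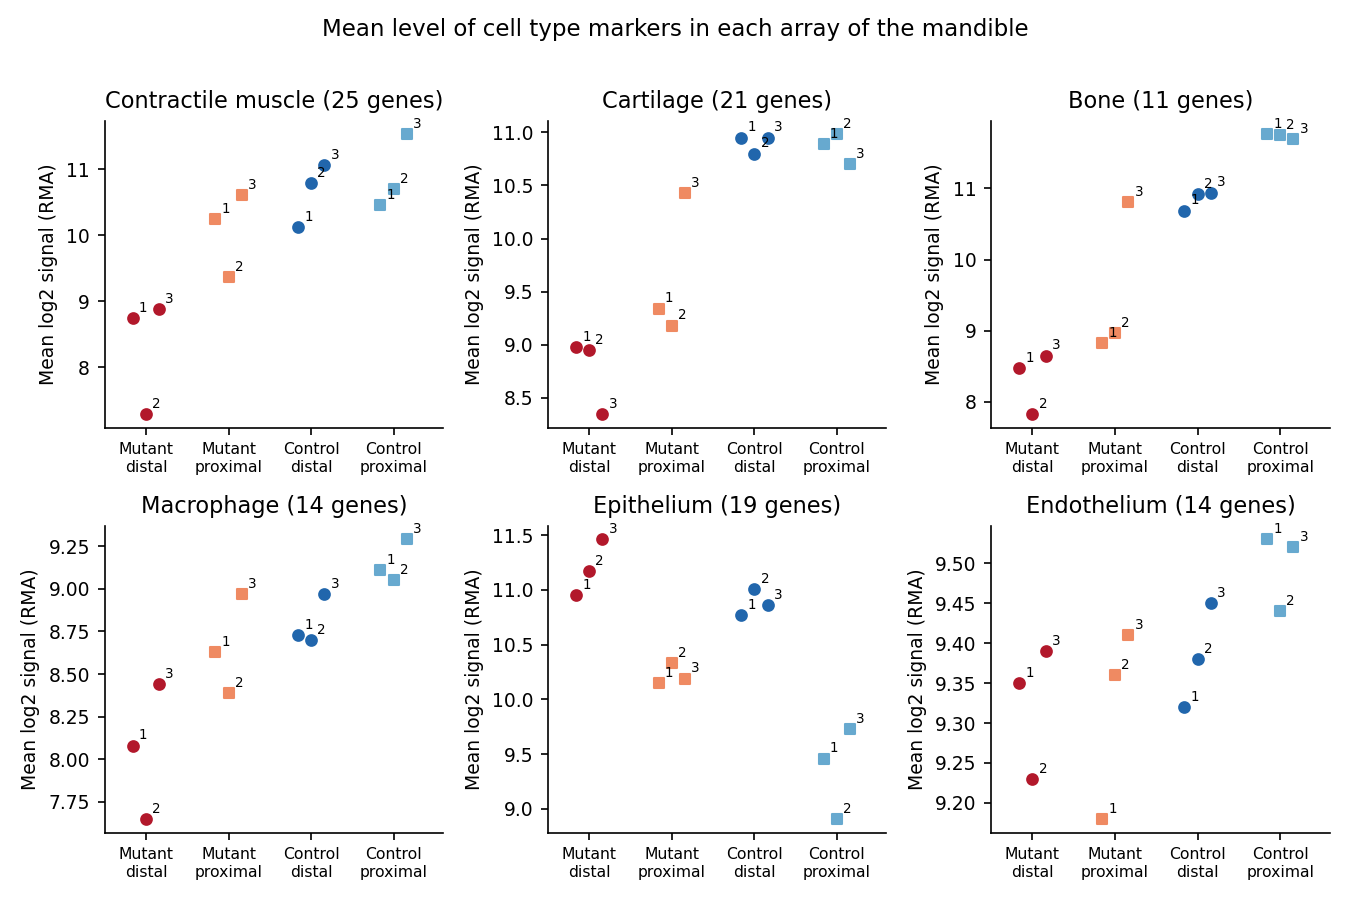
Mean log2 signal level (y axis) of the tested markers of 6 cell types in each array of the mutant distal, mutant proximal, control distal and control proximal mandible, with each point marked by its replicate number. Muscle markers are lowest in the mutant distal array numbered 2 (7.29), and epithelial markers are higher distally than proximally in both genotypes.

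The mutant maxilla, whose arrays are separate from those of the mandible, showed how far these differences are shared by the upper jaw. Its distal minus proximal comparison called 173 genes (1.24%), or 63 without both maxilla arrays numbered 3 and 515 with the replicate block. Without the distal maxilla array numbered 3 it called 176, and without any other 1 of its arrays 57 to 105. The test of the difference between the jaws called 100 genes (0.717%), 46 more positive in the mandible and 54 more negative, 129 without both maxilla arrays numbered 3 and 170 with the replicate block. It called 45 to 48 without the mandible distal array numbered 2, the mandible proximal array numbered 3, the maxilla distal array numbered 1 or the maxilla proximal array numbered 1, and 64 and 66 without the maxilla proximal array numbered 2 and the mandible distal array numbered 3. Alx1 was at 12.82, 12.85 and 12.48 in mutant distal maxilla, against 12.45, 12.61 and 11.14 in mutant proximal maxilla. Both ends of the maxilla were as high as the distal mandible or nearly so, and the jaw difference was 4.36 ± 0.50 (adjusted p = 0.000136, 4.70 without both maxilla arrays numbered 3). Qrfpr was at 4.0, 4.14 and 4.19 in mutant distal maxilla, against 3.96, 4.14 and 4.13 in mutant proximal maxilla, near the lowest values on the arrays (jaw difference 3.14, adjusted p = 1.28e-09). This jaw difference is therefore limited by background too. Dlx5 differed by -1.0 in the mandible and 0.85 in the maxilla (jaw difference -1.85, adjusted p = 0.00066), and Dlx6 by a jaw difference of -2.25 (adjusted p = 0.00323). Nr2f1, with a jaw difference of -3.00 (adjusted p = 0.00431), and Vstm2a, with -3.06, were more proximal in the mandible. Ibsp was at 11.64, 11.20 and 12.98 in mutant distal maxilla, against 9.90, 7.59 and 9.80 in mutant proximal maxilla, the reverse of the mandible (jaw difference -4.98, adjusted p = 0.0134). The jaw calls of Alx1, Qrfpr, Dlx5, Dlx6, Nr2f1, Vstm2a and Ibsp held in all 12 fits that left out 1 array. Hey2 (1.89, adjusted p = 0.0351) and Sfrp4 (2.80, adjusted p = 0.0485) were called too but were lost in 9 and 10 of these 12 fits.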

How the data were processed

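Biotin-labelled cRNA from 5 µg of total RNA per sample was hybridised to single-colour mouse oligonucleotide arrays, per the labels' protocols. Per the submitters' processing notes, RMA was the authors' normalization, and what they deposited is a log2 signal per probe set and array. No RMA version is given there, and the base of the logarithm was read from the values, which run from 3.29 to 14.86. Of 45101 probe sets, 34945 had 1 gene symbol in the platform annotation, 932 several, 9160 none and 64 were controls. RefSeq (GRCm38.p6, used for names and promoter sequences) matched 34741 of them and left every symbol as it was. For each of 18193 genes the probe set that averaged highest over the 24 arrays was used. Testing was restricted to 13942 genes that exceeded an array's 40th percentile on 3 or more arrays.

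A linear model with 1 mean for each of the 8 groups was fitted to the 24 arrays together (limma 3.58.1 under R 4.3.3, lmFit, eBayes with a mean-variance trend, two-sided, Benjamini-Hochberg over all genes tested). The replicate numbers of the labels were taken to pair same-numbered arrays, because their residuals correlated above 0.1 in every pair of the comparisons used, and the fit with the number as a block was an alternative. The block joined all same-numbered arrays of a genotype, mandible and maxilla alike. Residuals were compared between the ends of a jaw and not between the jaws. Others were the replicate number as a random block (correlation 0.231), array weights, only the arrays compared, the mean of all probe sets of a gene, quantile normalization again, no filter, a filter at the 60th percentile, no trend, a minimum log2 difference of 1, and leaving out each array. The members and gene lists were chosen with earlier results of these data known. Genes were named by rule as the 15 with the largest called difference in each direction whose arrays do not overlap, the 10 in each direction of the control, the 8 and 5 in each direction of the genotype and jaw differences, all distal, proximal and DLX factors, and up to 4 members of other lists by the moderated statistic. The test was checked on simulated data of 13942 genes with 200 changed, where it recovered 94% of log2 changes of 1 and 98% of changes of 2 in the mutant mandible comparison, with 5.4% false among the calls. For the difference between genotypes it recovered 85% and 93%, with 4.3% false. The simulated arrays were independent and had 1 spread per gene in all groups. The real mandible arrays had weights from 0.5 (mutant proximal) to 2.9 (control proximal), and same-numbered arrays deviated together. The simulated rates therefore do not measure how the test performed on the real arrays. The number of arrays limits the precision. Tables were made with pandas 2.3.3 and numpy 2.4.6 in Python 3.11.15, and plots with matplotlib 3.10.9.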

Additional observations from a re-analysis of the deposited data

Results flagged for a closer look

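The distal minus proximal difference depended on the genotype, by the limma test of the difference itself (mutant minus control), in 15 genes. It was more positive in the mutant for Dkk4 (2.59, adjusted p = 0.0176), Dkk1 (2.27, 0.00681), Tfap2b (1.97, 0.0388), Hpgd (1.77, 0.0176), Sox18 (1.05, 0.0176), Lmo7 (1.02, 0.0261), Lbh (0.99, 0.0176), Wipi1 (0.60, 0.0418) and Cmpk1 (0.31, 0.0288). It was more negative for Tenm4 (-0.86, adjusted p = 0.0219), Enpep (-1.25, 0.0219), Htr7 (-1.31, 0.0176), Corin (-1.89, 0.0288), Nr5a2 (-1.89, 0.0219) and Tspan8 (-2.19, 0.0176). Hpgd, a prostaglandin-degrading enzyme, differed by 1.54 in the mutant and -0.22 in the control, and Nr5a2, a nuclear receptor, by -1.64 in the mutant and 0.25 in the control. The value of Dkk4 is limited by background, as given above. Without both mutant mandible arrays numbered 2, Dkk1, Hpgd, Lbh and Tenm4 kept their call among the 15.

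The mutant difference also depended on the jaw, by the same kind of test (mandible minus maxilla). The 5 largest values in each direction were 4.36 for Alx1, 3.14 for Qrfpr, 2.80 for Sfrp4, 2.25 for Klhl14 (adjusted p = 0.00204) and 1.89 for Hey2, and -3.53 for Dlx6os1 (adjusted p = 4.32e-05), -3.70 for Hrnr (0.0301), -3.92 for Panx3 (0.00277), -4.10 for Ifitm5 (0.0135) and -4.98 for Ibsp. Hrnr, a skin barrier protein, was at 7.69, 7.43 and 7.97 in mutant distal maxilla, against 3.93, 3.72 and 4.16 in mutant proximal maxilla. These proximal levels lay near the lowest values on the arrays, and Hrnr averaged 4.94 over all arrays, so its jaw difference is limited by background. Without both maxilla arrays numbered 3 its jaw difference was -3.67 and no longer passed (adjusted p = 0.0568), while the other 9 genes were still called.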

How the results depend on the processing

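Of 1805 values of the 182 named genes in the mutant mandible under alternatives other than leaving out 1 array, 1652 kept their direction and side of the threshold, 95 lost their call, 54 gained one and 4 turned sign. Without 1 array, 900 of 1092 did so, 160 lost their call, 21 gained one and 11 turned sign. Counts of called genes moved more. In the mutant mandible 2077 genes were called with the replicate block, 2008 with it as a random block, 831 without both arrays numbered 2 and 323 at a log2 difference of at least 1, and 567 to 1705 without 1 array. In the control mandible the counts were 1334, 1265, 2547 with array weights, 1870 with only the arrays compared, 216 at a difference of at least 1, and 362 to 528 without 1 array. For the genotype difference they were 56 with the replicate block, 58 with the random block, 39 with weights, 50 with only the arrays compared, 7 without both arrays numbered 2, and 1 to 29 without 1 array. For the maxilla they were 515, 439, 371 with weights, 1 with only the arrays compared, 63 without both arrays numbered 3, 65 at a difference of at least 1, and 57 to 176. For the jaw difference they were 170, 189, 33 with only the arrays compared, and 45 to 137. The cause was not tested. Among the named genes in the mutant mandible discussed, the replicate block changed the calls of Foxc1, Lipi and Tfap2b alone. Both settings without a pair of arrays were chosen after seeing the data. The differences that turned sign belonged to genes that were not called: Atp6v0d2 (0.05) and Ltbp3 (-0.02) with the mean of probe sets, Hoxb3 (0.00) with array weights, Hrnr (-0.03) without both arrays numbered 2, and, as ranges over the fits without 1 array, Atp6v0d2 (-0.26 to 0.14), Hoxb3 (-0.06 to 0.09), Hoxc4 (-0.55 to 0.18), Hrnr (-0.03 to 0.10), Alas2 (-0.01 to 0.21), Ehf (-0.05 to 0.72), Hbb-bh1 (-0.00 to 0.66) and Tbx1 (-0.08 to 0.26). RMA files hold no detection calls, so levels near the lowest values are not separated from background.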
